A study of Mus musculus with 20 samples.

Results

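The hemoglobin and heme synthesis genes described here are the 4 adult globin genes of the mouse, *Hba-a1*, *Hba-a2*, *Hbb-bs* and *Hbb-bt*, and *Alas2*, which were chosen by name as 5 of the 25655 genes listed in the count tables. Their mRNA was measured in the utricle, an otolith organ of the inner ear, by 3′ mRNA sequencing of 20 libraries, each made from 1 ng of total RNA. The animals were females of the C57BL/6J strain that had surgery when 8 weeks old, and the libraries fell into 4 groups of 5. The sham + v group was sham-operated and carried a vehicle pellet, and the OVX + v group was ovariectomized (OVX) and carried a vehicle pellet. The OVX + E2 group was ovariectomized and carried a pellet made to release 50 µg of estradiol over 60 days. The OVX + RAL group was ovariectomized and carried a pellet made to release 2.4 mg of raloxifene, a selective estrogen receptor modulator, over 60 days. The paper states that the mice were killed 4 weeks after surgery, before the end of that release period. The number of a replicate is the number at the end of its label, from 1 to 20. The labels do not say whether each library came from a separate animal, so that p-values measure the spread between these libraries.

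Hemoglobin carries oxygen in red blood cells and is built of alpha chains, encoded by *Hba-a1* and *Hba-a2*, and beta chains, encoded by *Hbb-bs* and *Hbb-bt* in the haplotype of this strain, each chain holding a heme group. *Alas2* encodes the erythroid form of 5-aminolevulinate synthase, the first enzyme of heme synthesis, whereas *Alas1* encodes the form used in other cells. Young red cells that have lost their nucleus still hold globin mRNA, so that a dissected tissue that holds blood also holds these transcripts. In bulk RNA, fewer cells of a type and less RNA per cell cannot be told apart.

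In the deposited tables on GRCm39, *Hba-a1* (ENSMUSG00000069919) lies on the plus strand at chr11:32233511-32234465 and *Hba-a2* (ENSMUSG00000069917) on the same strand at chr11:32246489-32247298, with 12023 bases between them. *Hbb-bt* (ENSMUSG00000073940) lies on the minus strand at chr7:103461731-103463203 and *Hbb-bs* (ENSMUSG00000052305) at chr7:103475741-103477303, with 12537 bases between them. *Alas2* (ENSMUSG00000025270) lies on the plus strand at chrX:149330371-149353634. The canonical GENCODE vM39 transcripts of the globin genes have 3 exons each, and that of *Alas2* has 11.

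The sequences before the start sites are shown to give the genomic context of the genes, and no test relates them to the levels. They come from the RefSeq promoter table (GRCm38.p6, all 5 genes matched), in the 250 bases before each RefSeq start, were located on GRCm39 by exact match, and are printed 5′ to 3′ along the gene only as far as no protein-coding exon overlaps them. Capitals mark the motif GATAA, the motif CACCC, the motif CCAAT and the motif TATAA, on either strand. *Hbb-bs* is shown over chr7:103477304-103477385 and *Hbb-bt* over chr7:103463204-103463380, both on the minus strand, and *Alas2* over chrX:149330163-149330370 on the plus strand. In *Hbb-bt* the last capitals begin a CCAAT that runs on into the annotated exon.
Hbb-bs: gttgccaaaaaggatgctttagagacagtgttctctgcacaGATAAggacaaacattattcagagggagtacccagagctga
Hbb-bt: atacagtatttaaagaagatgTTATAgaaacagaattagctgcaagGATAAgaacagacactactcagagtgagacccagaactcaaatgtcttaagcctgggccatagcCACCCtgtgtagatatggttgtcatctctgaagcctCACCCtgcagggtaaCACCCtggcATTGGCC
Alas2: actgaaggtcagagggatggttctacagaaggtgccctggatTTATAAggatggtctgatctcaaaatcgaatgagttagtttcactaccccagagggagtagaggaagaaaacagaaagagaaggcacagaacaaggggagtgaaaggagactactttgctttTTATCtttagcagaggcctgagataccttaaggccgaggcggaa

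Within the whole 250 bases, GATAA, the core of the site of GATA factors, was present in 5 of the 5 genes and in 22.6% of the 32851 RefSeq promoters. CACCC, the core of the site of Krüppel-like factors, was present in 5 of 5 and in 52.0% of all promoters. TATAA was present in 5 of 5 and in 22.8% of all, and CCAAT in the 4 globin genes and in 33.8% of all. In *Alas2* the TATAA matches of both strands overlapped. The 250 bases of *Hba-a2* were those of *Hba-a1* shifted by 3 bases, with 247 bases identical, and are not printed because exons of other transcripts of these genes reach into them. These matches are descriptions of the letters.

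The libraries held between 1123053 and 2081747 counts, and the OVX + E2 libraries were the shallowest group, with 1123053 to 1507667 counts and 6530 to 8907 genes at 3 counts or more, against 9381 to 9929 genes in the OVX + v group. Of 11 genes of the utricle epithelium, the highest was *Otog*, at 2508 CPM (counts of a gene scaled to a common library total) on average. It is the gene of otogelin, a protein of the acellular membranes of the inner ear. The hair cell transcription factors *Pou4f3* and *Gfi1* followed at 276 and 207 CPM. Others of the 11 were lower, down to *Otop1* at 12.4 CPM and *Oc90* at 4.88 CPM. These last held 3 counts or more in 10 and 7 of the 20 libraries. The lowest-numbered library of each group (replicates 1, 6, 11 and 16) stood apart. These 4 libraries held the lowest ranks, 17 to 20 of 20, in the summed CPM of 10 endothelial genes, and replicates 1, 6 and 16 held ranks 18 to 20 in that of 11 genes of the utricle epithelium. Replicates 1, 6 and 16 also held the highest globin sum of their groups, at 1728, 2442 and 2877 CPM. The labels name no batch, and each group held 1 such library. The comparisons of the globin genes and their sums and the correlations were also computed without them, a setting chosen after seeing the data.

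The 4 globin genes together made 0.0363% to 0.384% of the counts of a library. By mean CPM over the 20 libraries, *Hba-a2* held rank 218 of the 25655 genes, *Hbb-bs* 252, *Hba-a1* 437, *Hbb-bt* 2472 and *Alas2* 10829. Counts were taken at the 3′ end, and these CPM levels are not corrected for length. The globin sum averaged 1168 ± 414 CPM for sham + v (SD, n = 5 here and for the next 3), 1453 ± 668 CPM for OVX + v, 1272 ± 1445 CPM for OVX + E2 and 1545 ± 799 CPM for OVX + RAL. The 4 means lay within 1 SD of each other, and the highest library of all and the lowest were both in the OVX + E2 group, at 3837 and 363 CPM.

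**Figure D1:**
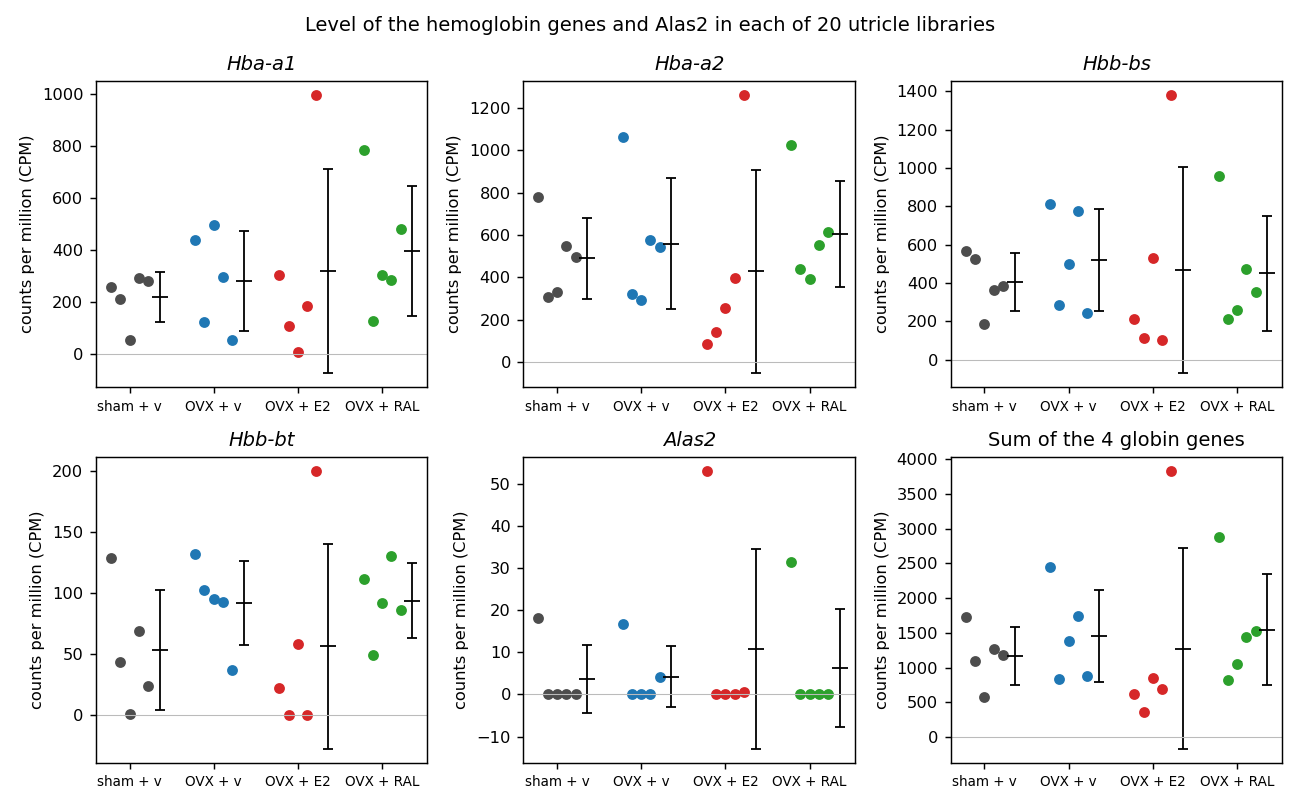
CPM of the 5 genes and of the sum of the 4 globin genes in each library (points, in order of library number within the group), with the mean and SD of 5 libraries beside them in black. All groups overlap in every panel, 1 OVX + E2 library (replicate 15) lies above all other libraries for each globin gene, and SD bars reach below 0 where the SD exceeds the mean.

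*Hba-a2*, the most abundant of the 5, stood at 777, 308, 329.5, 546 and 495 CPM in sham + v replicates 1 to 5. It stood at 1062, 321, 294, 575 and 543 CPM in OVX + v replicates 6 to 10. In OVX + E2 replicates 11 to 15 it stood at 84.9, 145, 257, 396 and 1259.8 CPM, so that 3 libraries lay below every OVX + v library and 1 above all of them. In OVX + RAL replicates 16 to 20 it stood at 1024, 438, 395, 551 and 612 CPM, within the range of the OVX + v group.

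*Hba-a1* encodes the same kind of chain, and its levels were more scattered. The sham + v libraries held 256, 210.5, 53.9, 292 and 278 CPM, and the OVX + v libraries 436, 124, 494, 293 and 53.0 CPM. The OVX + E2 libraries held 302, 105, 6.41, 184 and 995 CPM, a range of 155 times from 8 counts in replicate 13 to 1419 counts in replicate 15. The OVX + RAL libraries held 783, 124, 303, 285 and 481 CPM, of which 1 lay above every OVX + v library.

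*Hbb-bs*, the more abundant beta globin gene, stood at 566, 527, 187, 363 and 384 CPM in the sham + v group and at 812, 283, 501, 774 and 242 CPM in the OVX + v group. It stood at 215, 113, 528, 104 and 1381 CPM in the OVX + E2 group and at 959, 213, 257, 475 and 352 CPM in the OVX + RAL group. Again 3 OVX + E2 libraries lay below the OVX + v range and 1 above it.

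*Hbb-bt*, the minor beta globin gene, stood at 129, 43.6, 0.593, 68.8 and 23.9 CPM in the sham + v group, where replicate 3 held 1 count. The OVX + v libraries held 132, 103, 95.2, 93.1 and 36.9 CPM, and the OVX + RAL libraries 112, 49.0, 91.6, 131 and 86.5 CPM. The OVX + E2 libraries held 22.6, 0, 58.5, 0 and 201 CPM, and the 2 libraries at 0 allow up to 2.27 and 2.67 CPM, the level that 3 counts make. *Hbb-bt* was counted 3 times or more in 17 of the 20 libraries.

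None of the 5 genes differed between groups in any of the 4 comparisons made (edgeR quasi-likelihood test, adjusted p over all genes under 0.05). The comparison of sham + v with OVX + v asked what ovariectomy changed, and those of OVX + E2 and of OVX + RAL with OVX + v what each treatment changed. These 3 comparisons share the OVX + v libraries. The number of the 5 genes called was 0 in the sham + v comparison, where 0.0145% of the genes tested were called, 0 in the OVX + E2 comparison (0.0584%), 0 in the OVX + RAL comparison (0.0286%), and 0 between OVX + E2 and OVX + RAL (0.0727%). With so few genes called in all, a count of 0 among 5 is near the background. The number with an unadjusted p under 0.05 was also 0 of 5 in each of the 4 comparisons, beside 1.82%, 2.10%, 1.97% and 1.89% of the genes tested that, like the 5, were counted in both groups, and the smallest adjusted p of edgeR over the 5 genes was 0.950, 0.867, 0.749 and 0.628 in the same order. No setting of DESeq2 or limma over all libraries called any of them.

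Between sham + v and OVX + v the log2 fold changes were −0.36 for *Hba-a1* (95% interval −1.04 to 0.32), −0.19 for *Hba-a2* (−0.71 to 0.33), −0.37 for *Hbb-bs* (−0.91 to 0.18) and −0.79 for *Hbb-bt* (−2.11 to 0.54). All 5 were below 0, with a median of −0.36 beside −0.02 over all genes tested, but *Alas2*, at −0.21, had a 95% interval of −5.86 to 5.44. Between OVX + RAL and OVX + v they were 0.50 for *Hba-a1* (−0.13 to 1.12), 0.11 for *Hba-a2* (−0.40 to 0.63), −0.21 for *Hbb-bs* (−0.76 to 0.34) and 0.03 for *Hbb-bt* (−0.96 to 1.02). The intervals reach 2-fold differences for *Hba-a1* in both comparisons, so that changes of that size cannot be read as absent.

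Between OVX + E2 and OVX + v the log2 fold changes were 0.19 for *Hba-a1* (95% interval −0.53 to 0.90), −0.38 for *Hba-a2* (−0.96 to 0.20), −0.16 for *Hbb-bs* (−0.74 to 0.42) and −0.71 for *Hbb-bt* (−2.32 to 0.91). On the mean of log2(CPM + 1), the difference of *Hba-a1* was −0.66, of the opposite sign. Between OVX + E2 and OVX + RAL, the 2 treatments, the changes were −0.31 for *Hba-a1* (−1.02 to 0.40), −0.49 for *Hba-a2* (−1.11 to 0.12), 0.05 for *Hbb-bs* (−0.59 to 0.69) and −0.73 for *Hbb-bt* (−2.33 to 0.86). With TMM scaling the sign of *Hbb-bs* turned, to −0.07, as it did with DESeq2 and limma.

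Because the reads of the paralogs may be split, each pair was also tested as 1 feature. The alpha sum (*Hba-a1* + *Hba-a2*) changed by −0.24 ± 0.230 (SE) in sham + v, by −0.17 ± 0.237 in OVX + E2 and by 0.25 ± 0.233 in OVX + RAL against OVX + v, and by −0.42 ± 0.250 between OVX + E2 and OVX + RAL. The beta sum (*Hbb-bs* + *Hbb-bt*) gave −0.42 ± 0.263, −0.23 ± 0.277, −0.17 ± 0.266 and −0.06 ± 0.308 in that order. None passed the test, with edgeR adjusted p of 0.550 or more. In 21 of the 28 values for genes and sums, edgeR took the spread wholly from the trend over all genes, so that these standard errors do not carry the larger spread of the globin genes themselves. In exact permutation tests of log2(CPM + 1), which use the libraries of the feature alone, 0 of 32 two-sided tests of the genes and sums fell under 0.05 (smallest p = 0.135, where 252 groupings allow 0.00794).

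**Figure D2:**
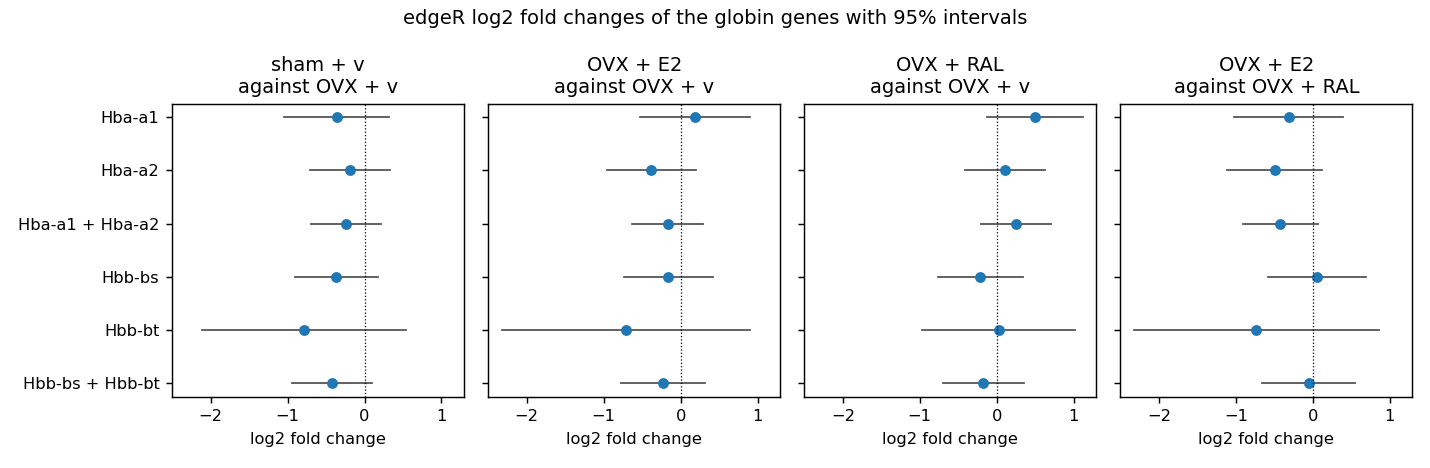
edgeR log2 fold changes (points) of the 4 globin genes and of the 2 paralog sums in the 4 comparisons, with 95% intervals (lines). Every interval crosses 0 (dotted line), and that of *Hbb-bt* is the widest in each comparison.

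One library carried much of the OVX + E2 mean. OVX + E2 replicate 15 held 3837 CPM of globin counts and the next OVX + E2 library 850 CPM. The 4 others held 624, 363, 850 and 685 CPM, of which 3 lay below the lowest OVX + v library (830 CPM). Replicate 15 also held the highest summed CPM of the endothelial genes, 671 CPM, and rank 5 of 20 for 20 erythroid genes. The 3 highest of these erythroid genes, *Mkrn1*, *Bpgm* and *Fech*, are also used by other cells. The part of the erythroid genes in the result was not tested. Without replicate 15, the log2 fold change of the alpha sum between OVX + E2 and OVX + RAL was −1.43 ± 0.304 (SE), with an edgeR adjusted p of 0.00479. That was 1 of 11 values past the threshold among 622 values of the 5 genes and 2 sums under alternatives, and the 11 all left out replicate 15, 10 of them in settings added after seeing the data. Of the 11, 7 were against OVX + RAL and 4 against OVX + v. Against OVX + v, the alpha sum without replicate 15 gave −1.18, with an adjusted p of 0.0647 in edgeR, of 0.0285 with its robust form and of 0.00948 with TMM. With TMM *Hba-a2* and the beta sum against OVX + v also passed, with edgeR adjusted p of 0.0331 and 0.0455. In exact permutation tests without it, 7 of 16 had an unadjusted p under 0.05 (smallest 0.0159). The library was left out because its values were high, which lowers the OVX + E2 mean by construction.

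Leaving out some other libraries moved the log2 fold changes of the alpha sum in OVX + E2 the other way, again by construction. Replicates 6 and 16 hold the highest globin sums of OVX + v and OVX + RAL. Replicates 11 to 14 hold alpha sums of 387, 250, 264 and 581 CPM, below the OVX + E2 mean of 747 CPM. Replicate 13 held a beta sum of 587 CPM, above the OVX + E2 mean of 525 CPM. Leaving it out moved *Hbb-bs* against OVX + v down, to −0.20. Leaving out OVX + v replicate 7 or 10, its lowest sums, moved the alpha sum down, to −0.33 or −0.27, and the beta sum to −0.36 or −0.41. Without replicates 1, 6, 11 and 16, the alpha sum gave −0.10 and the beta sum −0.41 in sham + v, and 0.24 and −0.36 in OVX + RAL, against OVX + v, with the directions found with them. The alpha sum then gave 0.31 in OVX + E2 against OVX + v and 0.07 against OVX + RAL. Without replicates 13 and 14, the OVX + E2 libraries with the fewest genes, it gave 0.20 and −0.05. These OVX + E2 values of the alpha sum had edgeR adjusted p of 0.882 or more. The directions of the alpha sum, the beta sum, *Hba-a1*, *Hba-a2* and *Hbb-bs* in the OVX + E2 group therefore depended on which libraries were kept. That of *Hbb-bt* did not turn in these or in any other setting tried, with log2 fold changes over all settings from −4.14 to −0.31 against OVX + v and from −4.21 to −0.34 against OVX + RAL, none past the threshold.

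Alpha and beta globin varied together between libraries. Over the 20 libraries, the alpha sum and the beta sum on log2(CPM + 1) had a Pearson r of 0.73 (permutation p = 0.00027, adjusted over 5 relations 0.00135) and a Spearman rho of 0.77 (permutation p = 0.00017, adjusted 0.00085). With the group means subtracted, r was 0.71 and rho 0.59 (permutation adjusted p = 0.00225 and 0.0380). Without OVX + E2 replicates 12 and 15, the farthest from the median of the alpha sum, r fell to 0.58 and its adjusted permutation p rose to 0.0594, with rho at 0.70 (adjusted 0.00940), so that the linear relation rested in part on these libraries. Without replicates 1, 6, 11 and 16, r was 0.64 and rho 0.62 (permutation adjusted p = 0.0441 and 0.0619). Within groups of 5, where no test was made, rho was 0.70 in sham + v, 0.90 in OVX + v and in OVX + RAL, and 0.30 in OVX + E2. Both sums share the library total as a denominator.

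**Figure D3:**
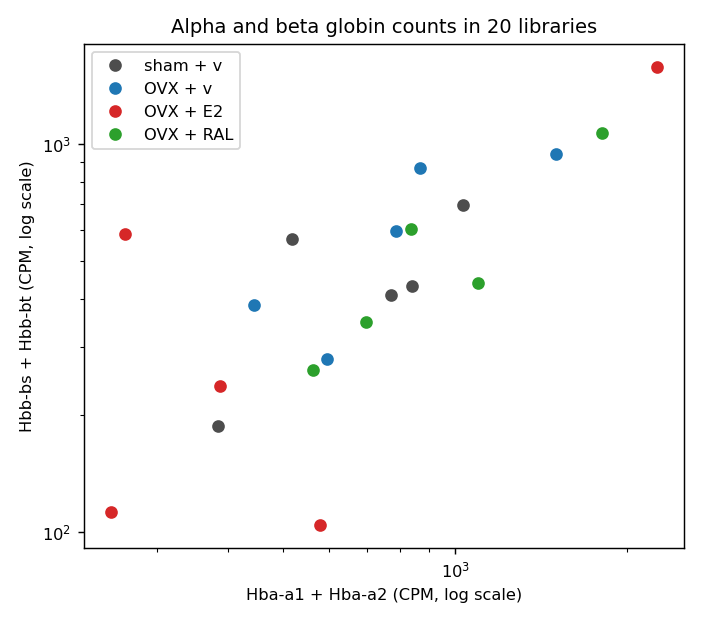
Beta globin sum against alpha globin sum in CPM, both axes logarithmic, 1 point per library, coloured by group. Most points rise together up to OVX + E2 replicate 15 at the upper right, at 2255 CPM of alpha and 1582 CPM of beta globin.

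Among single genes, the pair with the highest correlation was *Hbb-bs* and *Hbb-bt* (Spearman rho 0.79 over 20 libraries), and *Hba-a1* and *Hba-a2* had a rho of 0.51. The globin sum followed the library total with a rho of 0.52 (permutation adjusted p = 0.0476) and an r of 0.43 (adjusted 0.0928). With the group means subtracted rho was 0.46 (adjusted permutation p = 0.111), so that within groups the relation with depth was not past the threshold. With the endothelial genes the globin sum had an r of −0.14 and a rho of −0.09, and with the number of genes at 3 counts an r of 0.46 and a rho of 0.42, with permutation adjusted p of 0.563 and 0.721 and of 0.0928 and 0.117.

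The split within each pair varied between libraries, including libraries of the same group. *Hba-a1* made 2.43% of the alpha counts in OVX + E2 replicate 13 (95% Wilson interval 1.24 to 4.72) and 78.0% in OVX + E2 replicate 11 (74.5 to 81.2). Its share was 30.0 ± 10.6% (SD, n = 5) in sham + v, 32.4 ± 19.4% in OVX + v, 39.7 ± 27.1% in OVX + E2 and 37.4 ± 9.48% in OVX + RAL. The means thus differed by less than the spread in the OVX + E2 group, and OVX + v alone ran from 8.88% to 62.7%. The share of *Hbb-bt* in the beta counts ran from 0% in 2 OVX + E2 libraries, with upper Wilson limits of 2.51% and 3.18%, to 26.7% in OVX + v replicate 7. It was 9.66 ± 7.49% (SD, n = 5) in sham + v, 16.1 ± 6.19% in OVX + v, 6.43 ± 5.99% in OVX + E2 and 19.3 ± 5.76% in OVX + RAL. In two-sided exact permutation tests of both shares in the 4 comparisons, added after the values were seen, the *Hbb-bt* share in OVX + E2 differed by −9.69 percentage points from OVX + v and by −12.9 from OVX + RAL, with an unadjusted p of 0.0159 for each and 0.0635 after adjustment over the 8 tests, so that neither passed. With any 1 library left out the unadjusted exact p of these differences stayed at or below 0.0476 and 0.0397. These are overlapping subsets of the same libraries and add no separate test. The other 6 tests gave exact p of 0.175 or more. The ratio of alpha to beta counts ran from 0.449 to 5.57, both in the OVX + E2 group. Reads carry no molecular identifiers, so that these intervals cover counting error only.

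**Figure D4:**
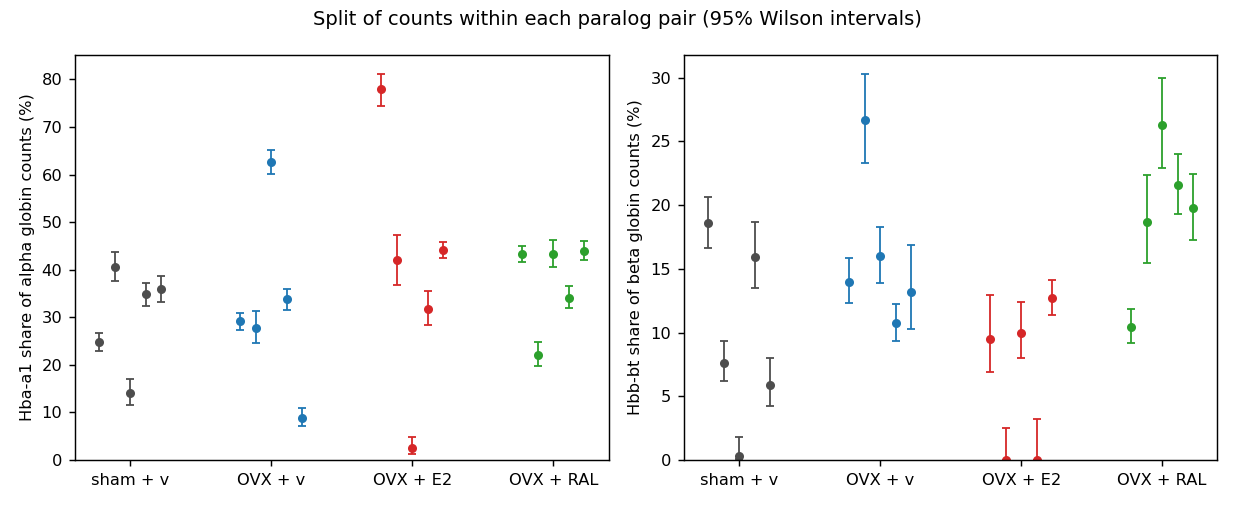
Percent of the alpha globin counts given to *Hba-a1* (left) and of the beta globin counts given to *Hbb-bt* (right) in each library, with 95% Wilson intervals, libraries in order of number within each group. The *Hba-a1* share runs from 2.43% to 78.0% within the OVX + E2 group alone.

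The paralogs share much of their 3′ sequence, the alpha pair more than the beta pair. In the last 400 nucleotides of the canonical transcripts, 74.6% of the windows of 63 nucleotides of *Hba-a1* were found without a mismatch in *Hba-a2*, and 93.2% with up to 2 mismatches. For *Hba-a2* in *Hba-a1* the shares were 81.4% and 100%. For *Hbb-bs* in *Hbb-bt* they were 52.4% and 62.1%, with a longest shared stretch of 239 nucleotides. A window of 63 nucleotides is what 75 read cycles leave after the first 12 nucleotides are trimmed. The methods give default settings of CLC Genomics Workbench for mapping and do not spell out how reads that match several genes were counted, so that levels of the single paralogs are uncertain and the sums are not touched by a split within a pair.

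*Alas2* was counted sporadically. It held 37 counts (18 CPM) in sham + v replicate 1, 27 (16.8 CPM) in OVX + v replicate 6, 80 (53.1 CPM) in OVX + E2 replicate 11 and 61 (31.4 CPM) in OVX + RAL replicate 16. It held 6 counts in OVX + v replicate 10, 1 in OVX + E2 replicate 15 and 0 in the other 14 libraries, where 3 counts would make between 1.44 and 2.67 CPM. Apart from replicates 10 and 15, the libraries that hold it are the lowest-numbered of each group, named above. No fold change between groups can be read from it, with edgeR 95% intervals of 10 or more on the log2 scale in width. Its correlation with the globin sum was low (r = 0.28, rho = 0.34, permutation adjusted p = 0.287 and 0.178). Without replicates 1, 6, 11 and 16, where *Alas2* held 7 counts in all, r was 0.11 and rho 0.22 (permutation adjusted p = 0.612 and 0.462).

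The other enzymes of heme synthesis were counted at low levels, and 0 of these 8 passed the test in any of the 4 comparisons. Along the pathway, *Alas1*, the non-erythroid form of the first enzyme, stood at 17.1 CPM on average over 20 libraries, *Alad*, which joins 2 molecules of aminolevulinate, at 47.9, and *Uros*, which closes the ring, at 1.70 CPM. *Urod*, *Cpox* and *Ppox*, which trim and oxidise its side chains and ring, stood at 31.4, 39.0 and 12.5 CPM, and *Fech*, which inserts the iron, at 37.5 CPM. In the OVX + E2 comparison with OVX + v, 4 of the 8 log2 fold changes were above 0 and 4 below, with a median of −0.23 beside −0.06 over all genes. *Alad* stood at 50.9 ± 28.1 CPM in sham + v, 33.1 ± 24.4 CPM in OVX + v, 40.9 ± 68.3 CPM in OVX + E2 and 66.6 ± 33.5 CPM in OVX + RAL (SD, n = 5 each).

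**Figure D5:**
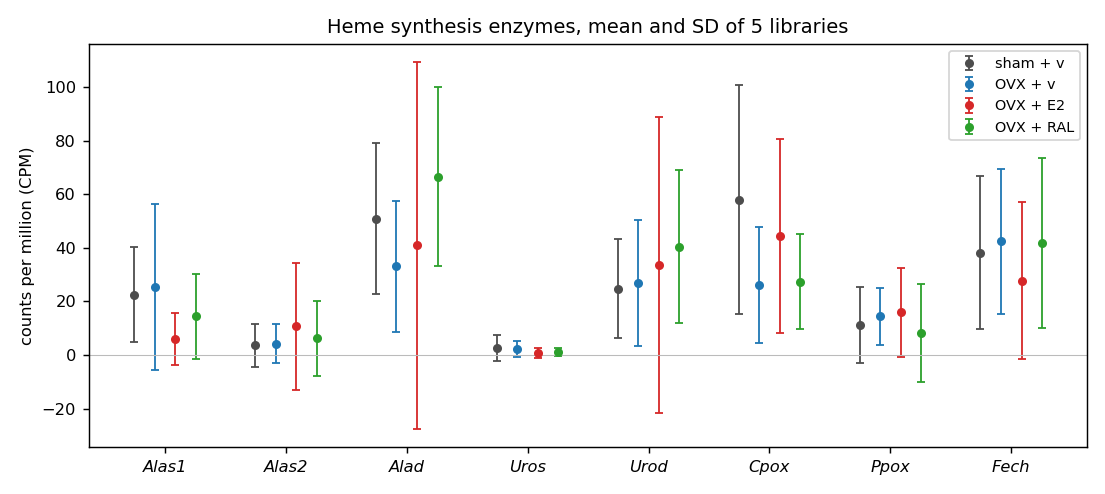
Mean CPM and SD (n = 5 libraries) of *Alas2* and 7 other heme synthesis enzymes in each group, in the order of the pathway. SD bars of the groups overlap for every enzyme shown, and some reach below 0.

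Of the 10 genes of mitochondrial iron import, iron uptake and heme transport, 0 passed the test in any comparison. In OVX + E2 against OVX + v, 8 of the 9 tested had a log2 fold change below 0, beside 7196 of all 13695 genes tested. The median was −0.75 beside −0.06 over all genes. Of the 8, 1 held 0 counts in OVX + E2, the shallowest group, and passed the filter through OVX + v counts alone. Among the 8, *Tfrc*, the transferrin receptor, named after its value was seen, stood at 3.28 ± 5.21 CPM in OVX + E2 and 54.5 ± 40.2 CPM in OVX + v (SD, n = 5 each). Its edgeR adjusted p was 0.351. The highest of the 10 genes were *Slc48a1*, a heme transporter, at 212 CPM, *Slc25a37*, the mitochondrial iron importer mitoferrin, at 39.3 CPM, and *Slc11a2*, an iron transporter, at 32.7 CPM. *Slc48a1* gave a log2 fold change of −0.81 ± 0.350 (SE) in OVX + RAL against OVX + v, with an edgeR adjusted p of 0.402. Of the 10 genes of heme breakdown and iron storage, 0 passed. The ferritin genes *Fth1* and *Ftl1* stood at 1968 ± 378 and 1229 ± 193 CPM (SD, n = 20), above each globin gene and with a smaller SD relative to the mean, and *Hmox2*, a heme oxygenase, at 31.6 CPM.

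Other globins were low or at 0 counts. *Hba-x*, *Hbb-y* and *Hbb-bh1*, which encode embryonic chains, *Hbb-bh2*, the theta globins *Hbq1a* and *Hbq1b* and neuroglobin (*Ngb*) held 0 counts in the 20 libraries, where 3 counts would make 1.44 to 2.67 CPM, and *Hbb-bh0* and *Hbb-bh3* are names not matched in the tables. *Cygb*, cytoglobin, stood at 25 CPM and *Mb*, myoglobin, at 9.62 CPM on average. *Mb* was counted 3 times or more in 7 of the 20 libraries, with 0 counts in sham + v and 19.8 ± 22.0, 1.46 ± 3.26 and 17.2 ± 23.5 CPM (SD, n = 5 each) in OVX + v, OVX + E2 and OVX + RAL. Of the 2 other globins tested, *Cygb* and *Mb*, 0 passed in any comparison. *Mb* passed the filter of sham + v against OVX + v through OVX + v counts alone (edgeR adjusted p = 0.363). Over all genes tested there, 1503 of 13825 held 0 counts in 1 of the 2 groups.

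Most erythroid genes apart from the globins were at or near 0. Of 21 erythroid genes on the list, 20 were listed, 7 held 0 counts in all libraries (among them *Gata1* and *Epor*) and 12 reached 3 counts in a library. *Slc4a1*, the anion exchanger of the red cell membrane, held 17 counts over the 20 libraries and *Klf1*, an erythroid transcription factor, 6. The highest members were *Mkrn1* at 85.9, *Bpgm* at 75.1 and *Fech* at 37.5 CPM, all 3 also used by other cells. The summed level ran from 143 to 252 CPM in sham + v, from 199 to 304 CPM in OVX + v, from 146 to 292 CPM in OVX + E2 and from 213 to 354 CPM in OVX + RAL, and 0 of its tested genes passed in any comparison.

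Markers of other blood cells were at low levels, and none passed the test. The summed level of 10 neutrophil genes ran from 0 to 155 CPM in sham + v, from 0 to 219 CPM in OVX + v, from 0 to 21.7 CPM in OVX + E2 and from 0 to 62.8 CPM in OVX + RAL, with *Elane* and *Mpo* at 0 counts in all libraries and *S100a8*, *Ltf* and *S100a9* the highest at 9.93, 8.68 and 6.00 CPM. The OVX + E2 libraries held 0 counts of 5 of the 7 genes tested against OVX + v, which passed the filter through OVX + v counts alone, and over all genes tested there 1744 of 13695 held 0 counts in 1 of the 2 groups. Platelet genes summed to at most 171 CPM, with *Pf4*, *Itga2b* and *Gp1bb* the highest at 29.5, 9.59 and 3.86 CPM and 5 of 10 at 0 counts. B and T cell genes summed to at most 63.0 CPM, with *Cd79a*, *Cd79b* and *Cd3d* the highest at 13.1, 0.964 and 0.571 CPM and 7 of 10 at 0 counts. The endothelial sum ran from 220.2 to 671 CPM in OVX + E2 and from 316 to 396 CPM in OVX + v, with 0 of 10 called and *Kdr*, *Flt1* and *Egfl7* the highest at 219.9, 55.8 and 37.2 CPM. The part of the blood cell genes in the globin values was not tested.

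The globin genes spread more between libraries of a group than genes of like abundance. The within-group SD of log2(CPM + 1) was 1.64 for *Hba-a1*, beside a median of 0.57 over the 858 genes within 2-fold of its mean, 0.91 for *Hba-a2* beside 0.44, and 1.03 for *Hbb-bs* beside 0.46. All 3 exceeded the upper quartile of those genes (0.70, 0.54 and 0.56). *Hbb-bt* had an SD of 2.18 beside 1.54 and *Alas2* 2.15 beside 1.95. These are descriptions without a test.

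Among 9529 genes with a mean of at least 10 CPM, the 10 whose log2(CPM + 1) ranked most like the globin sum over the 20 libraries were *Fkbp3*, *Eva1b*, *Aldh1a2*, *Plekha7*, *Olfml2a*, *Lrrc58*, *Fut8*, *Eed*, *Cox7b* and *Slc38a6*. Their Spearman rho ran from 0.82 for *Fkbp3* to 0.70 for *Slc38a6*, about the level at which alpha globin followed beta globin (0.77). They were picked as the highest of many, share the library totals with the globin sum, and are given without a p.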

How the data were processed

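Per the labels, utricle RNA was sequenced in 20 libraries of 4 groups. As the methods describe it, the authors trimmed the reads, removed the first 12 nucleotides, mapped them to GRCm39 and counted them per gene in CLC Genomics Workbench at its default settings. The deposited counts are raw read counts per gene, and 0 columns of samples outside the series and 0 rows without a gene name were found. The CPM, TPM and RPKM columns and the authors' own fold changes and p-values for each treatment or sham against OVX + v were not used. The 3 deposited tables repeat the OVX + v counts, with 0 differences. Of 40 pairs of libraries within groups, 0 had identical counts.

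CPM used the sum of all counts of a library. For each comparison, edgeR 4.0.16 (R 4.3.3) fitted its quasi-likelihood test to the 10 libraries concerned, over all genes with at least 10 counts, taking total counts as library sizes without TMM. The standard error is the size of the log2 fold change over the square root of F. Adjustment over all genes tested followed Benjamini and Hochberg, with a threshold of 0.05. Alternatives were TMM, DESeq2 1.42.0, limma 3.58.1 on log2(CPM + 1) and log2(CPM + 0.1), other filters, robust dispersion estimation, 1 fit of all 4 groups, a library size without the 5 genes, and each library left out in turn. Correlations used 100000 permutations, two-sided. The members and gene lists were chosen with earlier results of these data known. Named are the 5 genes, the heme synthesis enzymes and other globins, the 3 highest of each other list, and the 10 genes most like the globin sum, and some genes of these lists are not reported here. *Slc4a1*, *Klf1*, *Tfrc*, *Otop1*, *Oc90* and genes at 0 counts were named after their values were seen. The settings without OVX + E2 replicate 15, without replicates 1, 6, 11 and 16 and without replicates 13 and 14, and the exact permutation tests, those of the shares included, were added after seeing the data, the 2 sets of libraries after an exploratory comparison of libraries that is not reported.

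On simulated data of 13749 genes for sham + v against OVX + v, with 200 genes changed (median fitted size 2.97 on the log2 scale) and a dispersion of 0.1, the fit recovered 200 with 38 false calls. With total counts as library size the unchanged genes were shifted by −0.23 there, and with TMM the false calls were 5. With a dispersion of 1 (13704 genes) it recovered 0 of 200, and without any change it made 0 calls.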

Additional observations from a re-analysis of the deposited data

Results flagged for a closer look

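Of 44 groups of 5 values of the 5 genes, their sums and ratios, 7 held 1 library farther from the others than a 95% limit allows, where chance gives about 2.2 of 44, or 1 in 20, for independent and normal values, which these are not. In the OVX + E2 group, replicate 15 was high for *Hba-a2* at 1259.8 CPM (next library 396 CPM), for the alpha sum at 2255 CPM (581 CPM) and for the sum of the 4 globin genes at 3837 CPM (850 CPM). These 3 values share counts and are 1 library. *Alas2* stood out in sham + v replicate 1 at 18 CPM, OVX + v replicate 6 at 16.8 CPM, OVX + E2 replicate 11 at 53.1 CPM and OVX + RAL replicate 16 at 31.4 CPM, the lowest library number in each of the 4 groups. In these groups 3 or 4 of the 5 libraries were at 0 counts of *Alas2*, so that 1 detected library stands out in any case.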

How the results depend on the processing

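Among 622 values of the 5 genes and 2 paralog sums under alternatives, the direction turned most often in the comparisons with the OVX + E2 group, and no value was past the threshold except the 11 that left out OVX + E2 replicate 15. For 6 *Alas2* values DESeq2 gave no adjusted p. The causes of the changes below were not tested. The number of genes called in all moved with the method, for sham + v against OVX + v from 2 to 1 (TMM), 12 (DESeq2), 0 (filterByExpr), 4 and 0 (limma with pseudocounts of 1 and 0.1), 0 (robust) and 1 (all 4 groups in 1 fit). For OVX + E2 it moved from 8 to 38 (DESeq2), 1 (filterByExpr), 3 (limma, 0.1), 4 (robust) and 2 (all 4 groups). For OVX + RAL it moved from 4 to 0 (filterByExpr, limma with 0.1, robust) and 1 (all 4 groups), and between OVX + E2 and OVX + RAL from 10 to 42 (DESeq2), 0 (filterByExpr), 2 (limma, 0.1), 6 (robust) and 5 (all 4 groups). Leaving out 1 library gave 1 to 10, 6 to 17, 3 to 11 and 8 to 16 genes in the same order.

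With limma (pseudocounts of 1 and 0.1) the log2 fold change in OVX + E2 against OVX + v turned to −0.66 and −0.69 for *Hba-a1* and −0.0010 and −0.15 for *Alas2*, that of *Alas2* in OVX + RAL to −0.30 and −0.90, and that of *Hbb-bs* between OVX + E2 and OVX + RAL to −0.45 and −0.45, with −0.072 under TMM and −0.0026 under DESeq2. The exact permutation tests gave the same differences as limma with a pseudocount of 1. The settings that follow were chosen after seeing the data. Without replicate 15, *Hba-a1* against OVX + v was −0.93 (DESeq2), −1.38 (limma), −0.91 (robust) and −1.04 (TMM), and *Hbb-bs* against OVX + RAL −0.98, −1.02, −0.91 and −1.10. Without replicates 1, 6, 11 and 16, the values against OVX + v were 0.25 for *Hba-a2*, 0.24 for *Hbb-bs*, 0.31 for the alpha sum and 0.16 for the beta sum, and against OVX + RAL 0.11 for *Hba-a1*, 0.044 for *Hba-a2*, 0.070 for the alpha sum and 0.53 for the beta sum. Without replicates 13 and 14 they were 0.12 for *Hbb-bs*, 0.20 for the alpha sum and 0.067 for the beta sum against OVX + v, and 0.24 for both *Hba-a1* and the beta sum against OVX + RAL.

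Leaving out each library in turn gave these ranges where a direction turned. In sham + v, *Alas2* ran from −5.86 to 1.73, *Hba-a2* from −0.41 to 0.18 and the alpha sum from −0.42 to 0.073. In OVX + E2 against OVX + v, *Alas2* ran from −4.03 to 3.28, *Hba-a1* from −0.91 to 0.50, *Hbb-bs* from −1.12 to 0.10, the alpha sum from −1.18 to 0.15 and the beta sum from −1.24 to 0.035. In OVX + RAL, *Alas2* ran from −5.92 to 2.52, *Hba-a2* from −0.16 to 0.48, *Hbb-bs* from −0.69 to 0.0031, *Hbb-bt* from −0.17 to 0.19, the alpha sum from −0.073 to 0.57 and the beta sum from −0.57 to 0.034. Between OVX + E2 and OVX + RAL, *Alas2* ran from −4.63 to 7.09, *Hba-a1* from −1.40 to 0.095, *Hbb-bs* from −0.91 to 0.53 and the beta sum from −1.07 to 0.34.

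The difference in the *Hba-a1* share of alpha counts (percentage points) ran from −8.29 to 5.15 in sham + v, −2.37 to 16.5 in OVX + E2 and −0.95 to 12.5 in OVX + RAL against OVX + v, and from −7.31 to 11.6 between OVX + E2 and OVX + RAL, and that in the *Hbb-bt* share did not turn.

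The Spearman rho of alpha with beta globin was 0.62 without replicates 1, 6, 11 and 16 (permutation adjusted p = 0.0619). That of the globin sum with the library total was 0.46 with group means subtracted, 0.44 without the 2 libraries farthest from the median and 0.53 without replicates 1, 6, 11 and 16, none past the threshold after adjustment. With the endothelial genes it turned to 0.16 and 0.20 in the latter 2 settings, and with the number of genes at 3 counts to −0.077 with group means subtracted. *Alas2* is limited by depth, since 3 counts make 1.44 to 2.67 CPM.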
